A study of Mus musculus with 54 samples.

Results

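Ovaries of second-generation (F2) female mice whose fathers had been exposed to the higher dose of a drug mixture were compared with ovaries of F2 females whose parents were both controls. The members are the 3 ovary libraries of the first cross and the 3 of the second, 6 of the 54 libraries of the series, taken from the ovary count table by their column codes and their titles. All 17454 genes that passed a filter on low counts, of 26264 in the table, were tested. The mixture held the anti-inflammatory drug ibuprofen (IBU) and its metabolite 2-hydroxyibuprofen (2hIBU), diclofenac (DCF) of the same drug class, and the contraceptive oestrogen 17a-ethinyl-estradiol (EE2).

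Pregnant mice drank the mixture from 8.5 days post-coitum, and their young (F1) went on drinking it until they were killed. Dose 2 supplied EE2 at 45 ng/L, DCF at 112 ng/L, IBU at 113 ng/L and 2hIBU at 225 ng/L. Control animals drank ethanol at 0.001% without the drugs, and the labels list the same ethanol for the dose 2 groups. The fathers of the first cross were F1 males of dose 2, and their mates were F1 control females. Both parents of the control cross were F1 controls. The F2 females themselves had no treatment and their age is given as 8 weeks. The age of the F2 males, whose testes are read beside them further on, is given as 10 weeks. The father is taken as the first name of each cross, as in the titles. The strain is not given in the sources used here, and nothing says whether replicates A, B and C came from separate animals or litters. The p-values measure spread between libraries only, and for this comparison it was estimated from the 18 ovary F2 libraries, not these 6 alone.

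The adult mouse ovary holds oocytes inside follicles, whose granulosa cells make oestradiol from androgens supplied by theca cells. The surge of luteinising hormone switches on a short programme of periovulatory genes, which includes the prostaglandin synthase Ptgs2, and the emptied follicle becomes a corpus luteum. Ibuprofen and diclofenac block prostaglandin synthases, and ethinyl-estradiol activates oestrogen receptors. Ovarian cells also run a circadian clock, in which BMAL1 (gene Arntl) and CLOCK drive transcription from E-boxes of Per, Cry, Nr1d1 and Dbp, and NR1D1 represses Arntl in return.

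The 6 libraries held 39.1 to 55.3 M counts, and the 18 ovary F2 libraries held 35.6 to 60.5 M. Foxl2, the granulosa cell regulator, had 7461 to 13223 counts in the 6 libraries, and Zp3, a zona pellucida gene of oocytes, had 2458 to 3803. Counts of the Y-linked Ddx3y were 0 in all 6, and those of the sperm protamine Prm1 were 1 to 8. The control library C stood apart on the periovulatory genes, as described with them. Levels are given as CPM, counts scaled to the size of the normalised library, and differences as log2 fold changes ± SE, father dose 2 minus control. A gene was called where the adjusted p (edgeR quasi-likelihood test, Benjamini-Hochberg over all genes tested) was under 0.05.

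Metrnl was the 1 gene called, 0.00573% of those tested. It encodes meteorin-like, a secreted protein made by macrophages, fat and barrier tissues among others. Its levels were 43.9, 41.3 and 42.4 CPM in control libraries A, B and C and 74.5, 98.0 and 78.2 CPM in the father dose 2 libraries. The groups did not overlap, and the 3 controls lay within a narrow band. The difference was 0.97 ± 0.12 on the log2 scale, 1.96-fold higher (adjusted p = 0.0155, n = 3 libraries a group). Leaving out control B, control C or father dose 2 B gave adjusted p of 0.142, 0.151 and 0.0889 with log2 differences of 0.97, 0.99 and 0.86, so the call rests on all 3 of these libraries. It was also lost when the spread was estimated from the 6 libraries alone (adjusted p = 0.182) or from all 27 ovary libraries (adjusted p = 0.13). DESeq2 called 343 genes, and edgeR called 108 without father dose 2 A.

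Markers of macrophages and of the fat pad were read beside Metrnl. Of 20 macrophage and MHC class II genes 0 had higher and 1 had lower levels at unadjusted p under 0.05, and their summed level was 776 to 2312 CPM in the controls and 1142 to 1410 CPM in the father dose 2 libraries. The macrophage marker Adgre1 had 32.2, 15.4 and 12.7 CPM in the controls and 20.0, 13.99 and 13.2 CPM in the father dose 2 libraries. Of 18 fat pad genes 1 was higher and 0 lower, with summed levels of 339 to 512 CPM in the controls and 277 to 457 CPM in the father dose 2 libraries. No macrophage gene was at 0, and 2 fat pad genes were at 0 in control B and in father dose 2 A and B. The summed level of each list overlapped between the groups, and its part in the Metrnl difference was not tested.

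Across the 6 crosses Metrnl was highest with father dose 2, at 83.6 ± 12.6 CPM (SD, n = 3). It averaged 64.4 ± 10.3 CPM with both parents dose 2, 60.9 ± 5.66 with mother dose 1, 52.2 ± 5.63 with mother dose 2, 51.3 ± 2.54 with father dose 1 and 41.3 to 43.9 CPM with control parents. The highest library of both parents dose 2 reached 75.2 CPM, above the lowest father dose 2 library at 74.5 CPM, so these neighbours overlap.

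Without adjustment, 1356 genes had higher levels with p under 0.05 (7.77% of those tested) and 1409 had lower levels (8.07%). The 3 father dose 2 libraries lay above all 3 controls for 1695 genes (9.71%) and below them for 1957 (11.2%). Counts of list members below are read against these shares. Genes were named by a rule which, with 1 call, took the 10 smallest p in each direction, so their ranks and their separation follow from that choice. Apart from Metrnl their adjusted p ran from 0.165 to 0.184, above the threshold.

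Promoter sequence is shown for the called gene and for 3 clock genes described further on, so that their letters can be read beside their levels. Each is the 250 bases before the RefSeq start on GRCm38.p6. Capitals mark the oestrogen response element half-site GGTCA in Arntl and the E-box CACGTG in Tef, on either strand.
Metrnl, chr11:121702177-121702426, plus strand: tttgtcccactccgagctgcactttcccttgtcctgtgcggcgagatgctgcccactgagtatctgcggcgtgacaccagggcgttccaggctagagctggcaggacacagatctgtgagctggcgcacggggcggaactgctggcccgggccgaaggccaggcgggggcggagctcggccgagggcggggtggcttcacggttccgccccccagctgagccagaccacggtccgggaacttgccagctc
Arntl, chr7:113207215-113207464, plus strand: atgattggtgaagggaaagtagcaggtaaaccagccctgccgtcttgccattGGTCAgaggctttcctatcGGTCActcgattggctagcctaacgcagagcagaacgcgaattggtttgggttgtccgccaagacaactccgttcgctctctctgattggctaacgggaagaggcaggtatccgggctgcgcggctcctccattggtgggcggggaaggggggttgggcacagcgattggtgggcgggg
Dbp, chr7:45704997-45705246, plus strand: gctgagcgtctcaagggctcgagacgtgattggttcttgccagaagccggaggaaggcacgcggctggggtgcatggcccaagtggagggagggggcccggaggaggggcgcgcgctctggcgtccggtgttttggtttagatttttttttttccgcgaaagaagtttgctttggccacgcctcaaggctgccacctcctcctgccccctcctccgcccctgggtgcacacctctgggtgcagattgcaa
Tef, chr15:81802423-81802672, plus strand: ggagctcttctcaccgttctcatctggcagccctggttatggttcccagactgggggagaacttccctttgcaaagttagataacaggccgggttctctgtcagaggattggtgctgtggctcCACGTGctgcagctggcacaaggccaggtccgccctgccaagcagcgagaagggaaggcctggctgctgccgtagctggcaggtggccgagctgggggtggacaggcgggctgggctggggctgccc
Over windows of 250 bases before and 50 after the start, 13555 of the 17454 genes tested had a sequence. The half-site GGTCA was present on either strand in 38.5% of them, the palindromic oestrogen response element in 0.0148%, the NR5A site TCAAGGTCA in 0.273%, the cyclic AMP response element TGACGTCA in 2.86% and the E-box CACGTG in 9.62%. Matches of the palindrome and of the NR5A site include the half-site by construction. The Metrnl and Dbp windows held none of the 5 motifs. Arntl held the half-site at 198 and 179 bases before the start, and Tef held an E-box at 127 bases before it. Of the 16 clock genes with a window, 5 held the E-box (31.2%). The E-box was added to the search after the values had been seen.

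**Figure D1:**
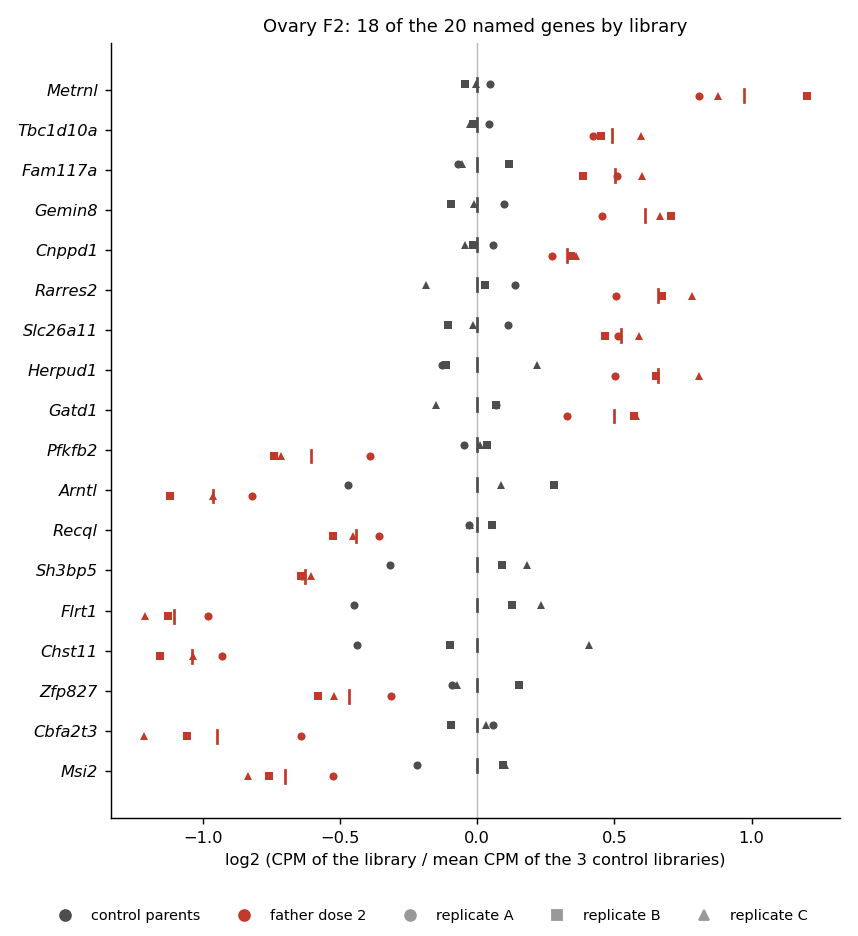
Each point is 1 library of control parents (grey) or father dose 2 (red), for 18 of the 20 named genes, as log2 of its CPM over the mean of the 3 controls, with bars at group means. All 3 red points of Metrnl lie right of all 3 grey points, and the genes were chosen by their p, so separation is part of the choice.

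Beside Metrnl, 8 of the named genes with higher levels are described, among them signalling, trafficking and stress genes. Rarres2, which encodes the adipokine chemerin, had 109, 101 and 86.8 CPM in the controls and 140, 158 and 170.0 CPM in the father dose 2 libraries, a log2 difference of 0.66 ± 0.13 (adjusted p = 0.165). Herpud1, an endoplasmic reticulum gene of the unfolded protein response, had 58.1, 58.7 and 73.8 CPM against 89.9, 99.9 and 111 CPM, a difference of 0.66 ± 0.13 (adjusted p = 0.173). In neither did the groups overlap. Tbc1d10a, a GTPase-activating protein of Rab proteins, differed by 0.49 ± 0.08, Gemin8 of the SMN complex by 0.61 ± 0.12, and Slc26a11, an anion transporter, by 0.52 ± 0.10. Fam117a (0.50 ± 0.09), Cnppd1 (0.33 ± 0.06) and Gatd1 (0.50 ± 0.10) were the remaining genes described.

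The named genes with lower levels, of which 9 are described, were led by Pfkfb2, which makes the glycolytic activator fructose-2,6-bisphosphate. Its levels were 63.5, 67.3 and 66.1 CPM in the controls and 50.1, 39.3 and 40.0 CPM in the father dose 2 libraries (log2 difference -0.61 ± 0.11, adjusted p = 0.165). Chst11, a chondroitin sulfotransferase, had 292, 370 and 525 CPM against 208, 178 and 193 CPM, and its controls varied more than its father dose 2 libraries. Flrt1, an adhesion protein, had 8.35, 12.5 and 13.4 CPM against 5.78, 5.22 and 4.92 CPM, the largest in size of the 20 at -1.10 ± 0.22. Cbfa2t3, a transcriptional corepressor, differed by -0.95 ± 0.19, and Msi2, an RNA-binding protein, by -0.70 ± 0.15. Recql, a DNA helicase (-0.44 ± 0.08), Sh3bp5 (-0.63 ± 0.12) and Zfp827 (-0.47 ± 0.09) had smaller differences than these 2. Arntl is described with the clock.

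No clock gene was called. Of 19 tested, 4 had higher and 3 lower levels at unadjusted p under 0.05, and the list's median difference was -0.19 against -0.01 over all genes. Among the activators, Arntl had 23.3, 39.2 and 34.3 CPM in the controls and 18.3, 14.9 and 16.6 CPM in the father dose 2 libraries (-0.96 ± 0.18, adjusted p = 0.165). Npas2, a paralogue of Clock, had 4.43, 13.98 and 4.95 CPM against 3.96, 2.15 and 2.66 CPM (-1.41 ± 0.46). Clock itself had 76.4, 84.7 and 88.8 CPM against 72.1, 63.0 and 60.9 CPM (-0.35 ± 0.13). All 3 activators lay lower in every father dose 2 library than in every control, and control B was high for Npas2.

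The output transcription factors of the PAR bZIP family lay the other way. Dbp had 36.9, 29.7 and 25.2 CPM in the controls and 66.4, 92.0 and 69.4 CPM in the father dose 2 libraries (1.31 ± 0.38, adjusted p = 0.186). Tef had 115, 99.2 and 88.2 CPM against 150, 153 and 133 CPM (0.52 ± 0.13), and Hlf averaged 8.99 ± 1.76 CPM (SD, n = 3) against 14.3 ± 2.68 CPM (0.67 ± 0.17). For each of the 3, every father dose 2 library lay above every control. Nr1d1, the repressor of Arntl, had 47.3, 59.5 and 42.6 CPM against 67.7, 84.9 and 74.0 CPM (0.60 ± 0.29, adjusted p = 0.327).

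Repressors of the negative arm did not share one direction. Per3 had 44.6, 27.6 and 31.96 CPM in the controls and 56.2, 49.0 and 42.1 CPM in the father dose 2 libraries, which overlap. Per1 differed by -0.42 ± 0.25, Per2 by -0.32 ± 0.32 and Cry1 by -0.03 ± 0.10. For Per1 the groups did not overlap (81.4 to 85.7 CPM in the controls and 53.2 to 73.9 CPM with father dose 2). Of the 19 clock genes, 4 lay above and 6 below all controls in every father dose 2 library, against 9.71% and 11.2% of all genes tested. Across the 6 crosses Arntl averaged 32.3 ± 8.14 CPM (SD, n = 3) in control parents, 31.1 ± 6.44 with mother dose 1, 26.9 ± 2.05 with mother dose 2, 18.9 ± 1.05 with father dose 1, 19.6 ± 3.06 with both parents dose 2 and 16.6 ± 1.69 with father dose 2. Dbp averaged 30.6 ± 5.87, 56.5 ± 30.4, 59.7 ± 17.95, 119 ± 36.4, 149 ± 49.1 and 75.9 ± 13.99 CPM in the same order of crosses. Dbp of father dose 1 (77.4 to 145 CPM) overlapped with father dose 2 (66.4 to 92.0 CPM), and Dbp was not called between these crosses. That of both parents dose 2 (93.4 to 187 CPM) lay above father dose 2, a difference that was not tested. The hour of collection is not given in the sources used here. Without control C the list's median turned from -0.19 to 0.05.

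**Figure D2:**
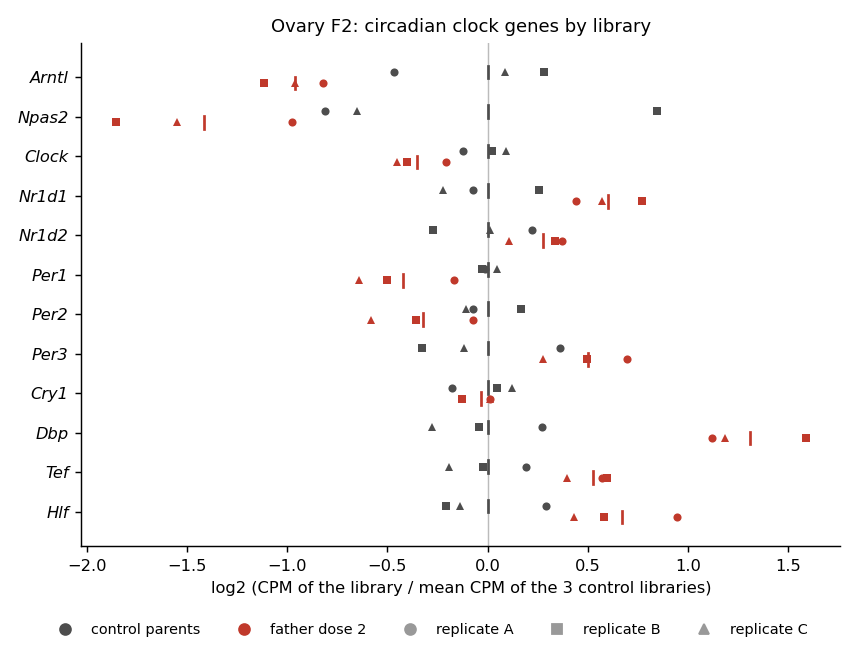
Points are libraries of control parents (grey) and father dose 2 (red) for 12 clock genes, as log2 of CPM over the control mean, with bars at group means. Arntl, Npas2 and Clock lie left of the controls, and Dbp, Tef and Hlf lie right of them.

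**Figure D3:**
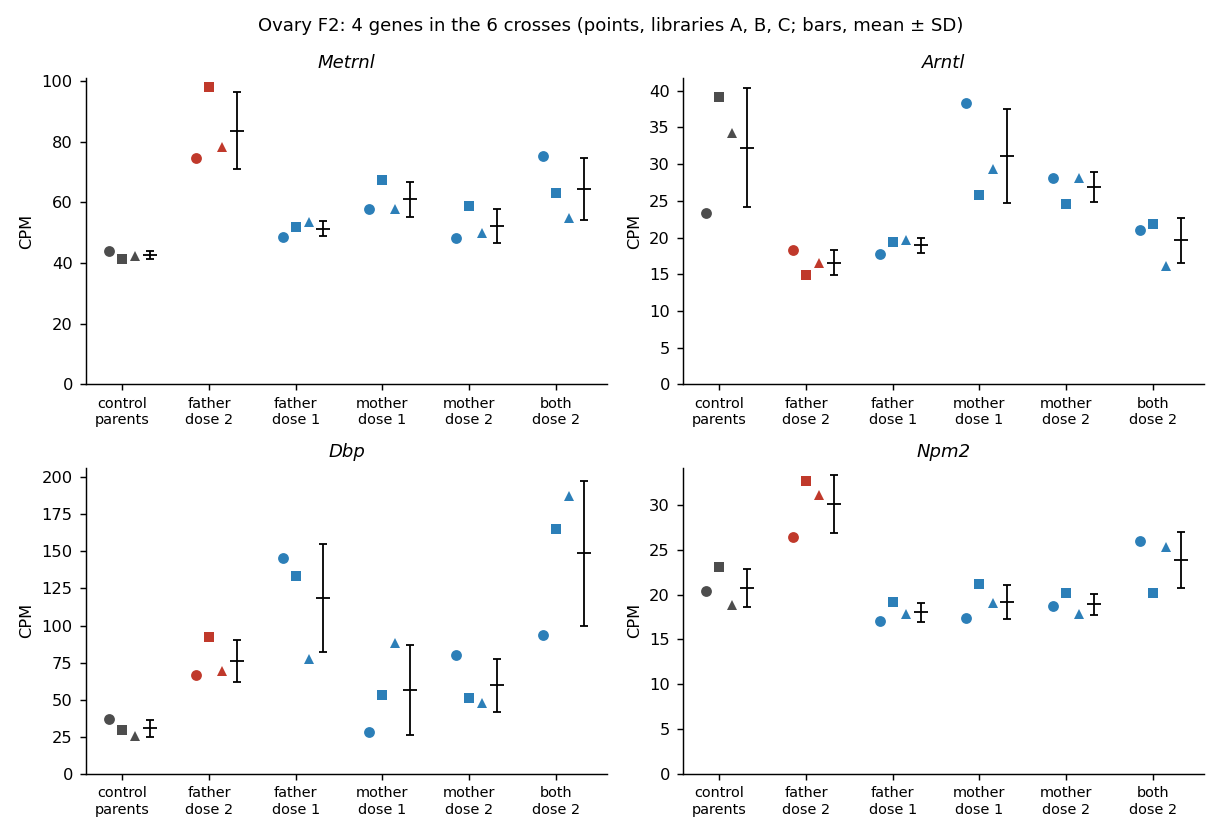
CPM of Metrnl, Arntl, Dbp and Npm2 in each library of the 6 ovary F2 crosses, with mean ± SD (n = 3). The mean of Metrnl is highest with father dose 2 (74.5 to 98.0 CPM), overlapping with both parents dose 2 (up to 75.2 CPM), and the mean of Dbp is highest with both parents at dose 2.

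Genes for cytosolic ribosomal proteins, the components of the translating ribosome, all had higher levels at unadjusted p under 0.05: 45 of 45 tested, with a median log2 difference of 0.44, and 0 were called (adjusted p 0.183 to 0.284). Yet the libraries overlapped for most, and 7 of 45 were separated between groups. Rps25 had 295, 336 and 274 CPM in the controls and 339, 480 and 479 CPM in the father dose 2 libraries (0.52 ± 0.13). Rpl3 had 1015, 1236 and 919 CPM against 1149, 1488 and 1453 CPM, so that father dose 2 A lay under control B. As the mean log2 level of the list, set against the mean of 18 libraries, father dose 2 B and C stood at 0.45 and 0.45, and A at 0.00, between control B at 0.07 and controls A and C at -0.15 and -0.31. Many of these genes have processed pseudogenes, so their counts are uncertain where reads could be split.

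Transcript length and GC content moved with these genes. Over all genes with a length, the median difference was 0.05 in the shortest quintile of transcripts and -0.12 in the longest quintile, and ribosomal protein genes had a median length of 658 nt against 1513 nt for all genes. Father dose 2 B and C had the shortest quintile above the longest by 0.21 and 0.16 on the log2 scale, while A stood at -0.04 and the controls at -0.06, -0.02 and -0.12. The quintile of lowest GC content stood at -0.05 and -0.09 in father dose 2 B and C and that of highest GC content at 0.04 and 0.08, while in the controls the lowest stood at 0.02 to 0.04 and the highest at -0.06 to -0.02. Father dose 2 A had -0.02 in the highest, and the part of GC content was not tested. With a trend on length taken out of each library, a step chosen after seeing the data, the median of the ribosomal list was 0.36 and 45 of 45 still had unadjusted p under 0.05. Respiratory chain genes, short as well, had a median of 0.10, with 6 of 24 higher and 0 lower at unadjusted p under 0.05.

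**Figure D4:**
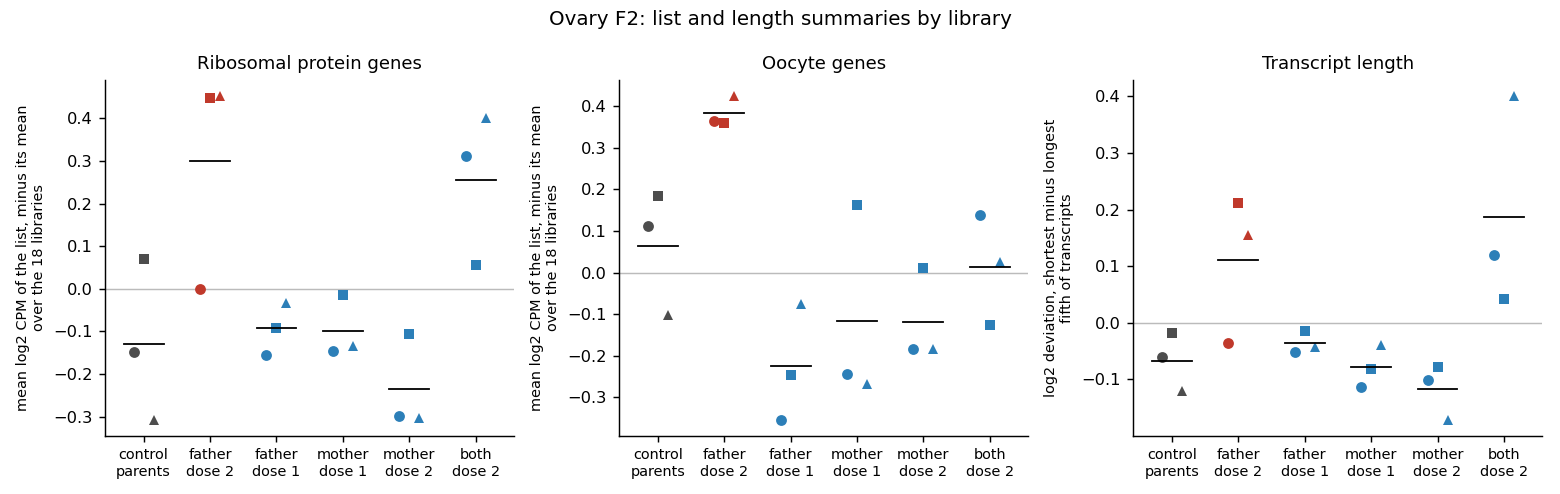
For the 18 ovary F2 libraries by cross, the mean log2 CPM of ribosomal protein genes and of oocyte genes (each minus its mean over the 18 libraries), and the log2 deviation of the shortest minus the longest quintile of transcripts. Father dose 2 A sits apart from B and C in the ribosomal and length panels, while its 3 libraries lie together at 0.36 to 0.42 in the oocyte panel, with black lines at group means.

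No oocyte gene was called, while the summed level of the list was higher in each father dose 2 library than in each control. Of 30 tested, 16 had higher and 0 lower levels at unadjusted p under 0.05, 21 were separated upward, and the median was 0.31. Summed over the list, the controls had 1245, 1269 and 1101 CPM and the father dose 2 libraries 1442, 1437 and 1533 CPM, which do not overlap. In whole ovary, more oocytes, more RNA per oocyte and a smaller share of RNA from other tissue cannot be told apart. The mean log2 CPM of theca and interstitial genes was 7.62, 7.91 and 7.56 in the controls and 7.42, 7.45 and 7.22 in the father dose 2 libraries, lower in each of these, though their summed levels overlapped (16490 to 21020 and 13990 to 18140 CPM). Of 20 corpus luteum genes 18 had differences below 0, and their mean log2 CPM of 7.58, 7.38 and 8.24 in the controls overlapped with 6.93, 7.59 and 7.32. The part of these tissues in the oocyte values was not tested. With the length trend removed the median was 0.30 with 17 of 30 genes. Leaving out any 1 of the 6 libraries gave medians of 0.29 to 0.43 and 12 to 18 of 30 genes.

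Npm2, the oocyte chaperone of chromatin, had 20.3, 23.1 and 18.8 CPM in the controls and 26.4, 32.7 and 31.2 CPM in the father dose 2 libraries (0.54 ± 0.12, adjusted p = 0.184). Gdf9, the growth factor through which oocytes act on granulosa cells, had 100.0, 102 and 84.4 CPM against 127, 138 and 137 CPM (0.49 ± 0.13). Zp3 had 67.2, 65.6 and 54.6 CPM against 77.9, 85.3 and 95.5 CPM (0.47 ± 0.16). Tle6 of the subcortical maternal complex differed by 0.36 ± 0.10 and Rfpl4 by 0.42 ± 0.12. 2 members of the list, Kit (-0.32, expressed in theca as well) and Ddx4 (-0.03), had differences below 0.

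Genes of the somatic follicle gave no call. Of 20 granulosa cell regulators, 3 had higher and 1 lower levels at unadjusted p under 0.05, with a median of -0.04. Foxl2 had 235, 304 and 236 CPM in the controls and 215, 228 and 187 CPM in the father dose 2 libraries. Amh, the hormone of growing follicles, had 225, 247 and 299 CPM against 369, 355 and 286 CPM, which overlap. Esr2, the granulosa oestrogen receptor, had 114, 93.1 and 86.7 CPM against 137, 144 and 179 CPM (0.64 ± 0.20, adjusted p = 0.197). Among 20 theca and interstitial genes the median was -0.33, with 0 higher and 2 lower. Fdx1, which passes electrons to steroidogenic P450 enzymes, had 780, 783 and 801 CPM against 559, 524 and 369 CPM (-0.70 ± 0.18). Cyp17a1, the androgen-forming enzyme, had 1555, 944 and 664 CPM against 683, 572 and 492 CPM, with wide control spread (-0.86 ± 0.81).

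Periovulatory genes had the lowest list median, -0.72, and 1 control library set it. Of 19 tested, 0 had higher and 7 lower levels at unadjusted p under 0.05. Ptgs2 had 1.10, 0.30 and 21.9 CPM in controls A, B and C and 1.06, 0.70 and 1.18 CPM in the father dose 2 libraries. Ereg, an epidermal growth factor ligand of the ovulatory cascade, had 4.13, 2.27 and 59.9 CPM against 1.36, 2.22 and 2.29 CPM. Adamts1, a matrix protease of ovulation, had 79.9, 69.4 and 415 CPM against 74.0, 59.7 and 72.1 CPM. Without control C the median was 0.09 and 2 of 19 genes were lower. Corpus luteum genes had a median of -0.62, and -0.21 without control C. Akr1c18, which breaks down progesterone, had 99.1, 8.14 and 1305 CPM in the controls and 42.9, 205 and 182 CPM in the father dose 2 libraries.

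Lists that relate to the drugs were mixed. Oestrogen-responsive genes numbered 2 higher and 4 lower of 24 at unadjusted p under 0.05 (median -0.15). Greb1, an oestrogen receptor cofactor, had 1342, 1080 and 1066 CPM in the controls and 956, 699 and 668 CPM in the father dose 2 libraries (-0.59 ± 0.17, adjusted p = 0.184). Myc had 83.0, 75.5 and 83.2 CPM against 98.2, 103 and 146 CPM (0.52 ± 0.17). Prostaglandin genes numbered 3 higher and 3 lower of 22. The synthases Ptgs2 and Ptgs1 were among the lower with control C high in both, and Ptgs1 had 6.98, 4.98 and 33.8 CPM against 4.37, 5.54 and 8.81 CPM. Ptgis, which makes prostacyclin, had 76.6, 79.4 and 78.1 CPM against 96.5, 96.9 and 114 CPM (0.39 ± 0.17, adjusted p = 0.275).

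Among epigenetic regulators, 1 of 18 DNA methylation and demethylation enzymes was higher and 4 were lower at unadjusted p under 0.05. Tdg, a DNA repair glycosylase of active demethylation, had 16.2, 19.7 and 19.1 CPM in the controls and 13.0, 12.5 and 13.2 CPM in the father dose 2 libraries (-0.51 ± 0.13, adjusted p = 0.184). Tet3, an oxidase of 5-methylcytosine, had 147, 147 and 157 CPM against 123, 103 and 110 CPM (-0.42 ± 0.14). Dnmt1 differed by -0.05 ± 0.13 and Dnmt3a by -0.12 ± 0.11. For imprinted genes, 0 were higher and 4 of 18 paternally expressed and 4 of 15 maternally expressed genes were lower. Rian, a maternally expressed noncoding RNA of the Dlk1-Dio3 locus, had 107, 140 and 159.7 CPM against 84.8, 71.2 and 84.3 CPM (-0.76 ± 0.23, adjusted p = 0.192). The paternally expressed Dlk1 of the same locus had 16.3, 3.66 and 24.9 CPM against 4.67, 2.22 and 2.16 CPM, which overlap.

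Growth factor signals between oocyte and granulosa cells were split. Of 32 inhibin, activin, BMP and AMH genes, 3 were higher and 3 lower at unadjusted p under 0.05 (median -0.04). Amhr2, the AMH receptor, had 156, 151 and 159 CPM in the controls and 198, 202 and 182 CPM in the father dose 2 libraries (0.32 ± 0.14, adjusted p = 0.29). Acvr1, a receptor of activins and BMPs, had 66.3, 74.8 and 63.8 CPM against 55.2, 44.0 and 45.7 CPM (-0.50 ± 0.14, adjusted p = 0.184). Smad3 and Smad2, intracellular transducers of activins, differed by -0.21 ± 0.08 and -0.19 ± 0.08. For Amhr2 and these 3 genes the groups did not overlap. Inha, the inhibin subunit, had 3262, 3134 and 2461 CPM against 3610, 3087 and 3223 CPM and overlapped.

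Lipid genes gave no call. Cholesterol genes numbered 0 higher and 2 lower of 30 (median -0.12), and fatty acid genes 1 higher and 3 lower of 27 (median 0.02). Soat1, which esterifies cholesterol for storage, had 882, 1004 and 797 CPM in the controls and 706, 652 and 515 CPM in the father dose 2 libraries (-0.52 ± 0.19, adjusted p = 0.228). Abca1, a cholesterol exporter, had 376, 672 and 586 CPM against 399, 279 and 337 CPM, and overlapped through control A. Ppara, the lipid-sensing nuclear receptor, had 34.6, 43.3 and 33.6 CPM against 31.96, 20.0 and 19.5 CPM (-0.64 ± 0.22). Cpt1a, the gate of mitochondrial fatty acid uptake, differed by -0.33 ± 0.15, and Plin3, a lipid droplet coat protein, was the 1 with higher levels (0.23 ± 0.08).

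Retinoid genes numbered 4 higher and 3 lower of 21 at unadjusted p under 0.05, with Rarres2, described above, among the higher. Aldh1a3, which makes retinoic acid, had 9.43, 8.79 and 9.34 CPM in the controls and 14.8, 11.8 and 11.7 CPM in the father dose 2 libraries (0.47 ± 0.14, adjusted p = 0.186). Rxrb and Rarg, nuclear receptors of retinoids, differed by 0.27 ± 0.08 and 0.35 ± 0.13. Stra6, a retinol transporter, had 56.1, 24.6 and 114 CPM against 21.6, 29.1 and 19.2 CPM and overlapped. Of 16 heat shock and cold-inducible genes, the cold-inducible Cirbp (0.27 ± 0.09) and Rbm3 (0.26 ± 0.09) were the 2 higher and 0 were lower. Among 29 antioxidant genes Gstp1 (0.62 ± 0.21) was the 1 higher and Gclc (-0.44 ± 0.14) the 1 lower.

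Steroid and growth factor receptors and other cell types gave few differences. Of 16 androgen, progestin and oestrogen metabolism genes, 1 was higher and 0 lower at unadjusted p under 0.05: Akr1c14, a hydroxysteroid dehydrogenase, had 293, 179 and 188 CPM in the controls and 296, 295 and 361 CPM in the father dose 2 libraries (0.53 ± 0.21). Of 10 prostanoid receptor and transporter genes 0 were higher and 1 lower, the exporter Abcc4 (-0.24 ± 0.09). Of 11 FGF receptors and partners 1 was higher, Fgfr4 (0.50 ± 0.16), and 1 lower, Fgf2 (-0.85 ± 0.37). Endothelial genes numbered 2 higher and 1 lower of 21. Cldn5, a tight junction protein of vessels, had 44.8, 38.3 and 31.8 CPM against 52.9, 59.6 and 65.6 CPM (0.63 ± 0.21, adjusted p = 0.201). Surface epithelium genes numbered 0 higher and 2 lower of 16, Igfbp5 (-0.57 ± 0.19) and Bnc2 (-0.48 ± 0.17). Smooth muscle genes numbered 0 higher and 1 lower of 15, lymphocyte and mast cell genes 1 higher and 0 lower of 16, and red blood cell genes 0 and 0 of 4. Adrenal and neural genes numbered 1 higher and 1 lower of 11. The lower was Cyp11b1, an enzyme of the adrenal cortex, with 0.20, 2.48 and 38.2 CPM in controls A, B and C against 1.23, 0.61 and 0.23 CPM, so control C was high in it as well.

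Several other lists had no gene under the unadjusted level. The 20 immediate early genes, 30 interferon-stimulated genes, 30 proliferation genes, 17 oviduct genes and 30 Wnt and hedgehog genes had 0 higher and 0 lower at unadjusted p under 0.05. Extracellular matrix genes numbered 0 higher and 5 lower of 33, with Hspg2 (perlecan) at 737, 759 and 939.9 CPM against 592, 566 and 599 CPM. Of the fat pad markers, Adipoq was low, at 0.57, 0.07 and 1.02 CPM against 0.09, 0.19 and 0.15 CPM. Plin1 was not, at 39.46 to 55.75 CPM in the controls and 35.3 to 51.34 CPM in the father dose 2 libraries, which overlap. The part of fat pad genes in the gene differences was not tested.

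**Figure D5:**
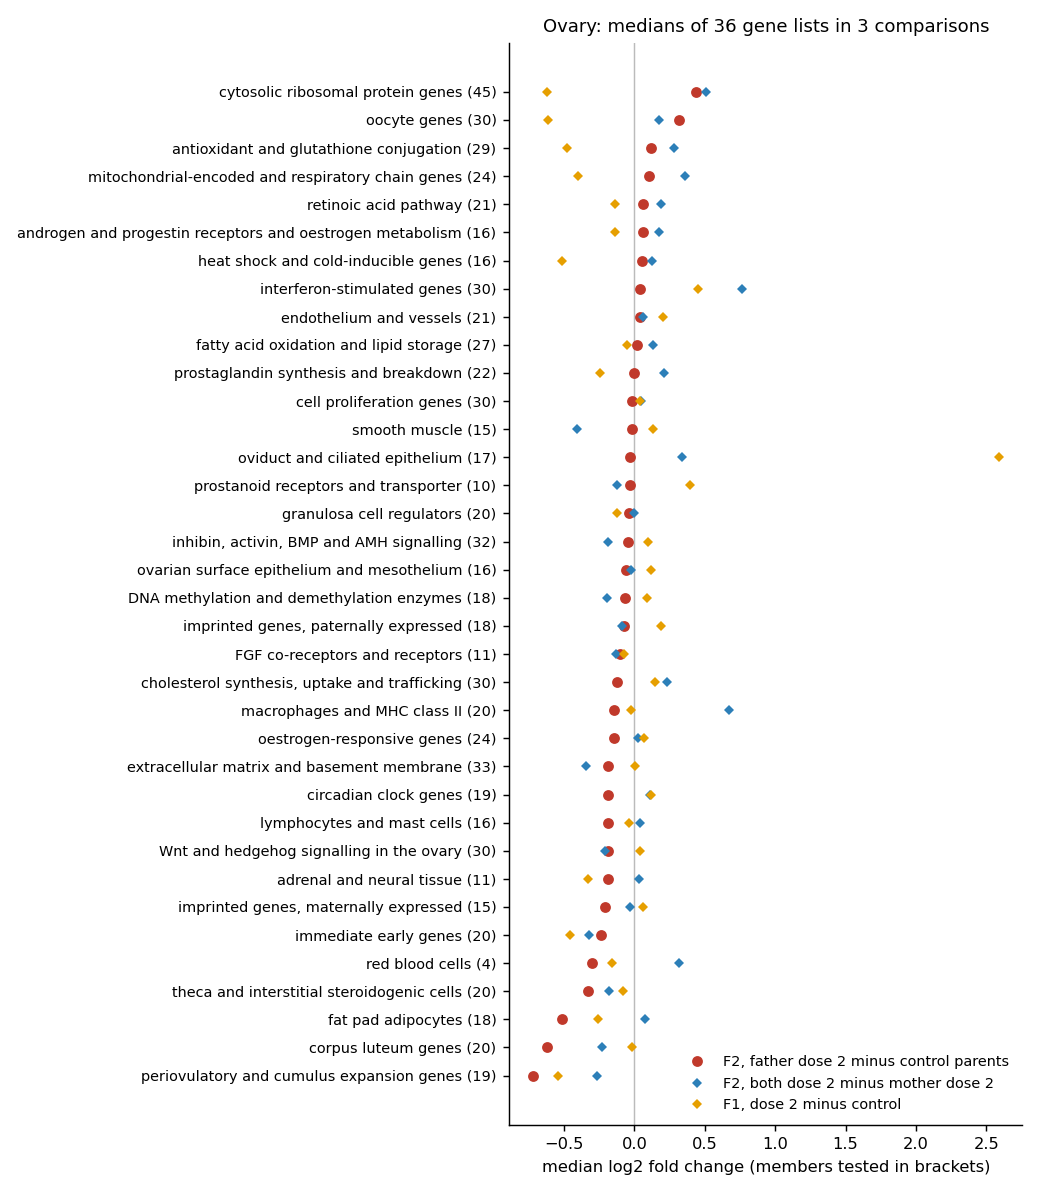
Median log2 fold change of 36 gene lists for father dose 2 minus control parents (red), both parents dose 2 minus mother dose 2 (blue) and F1 dose 2 minus F1 control (orange), with the number of genes tested in brackets. Ribosomal protein and oocyte lists lie above 0 in both F2 comparisons and below 0 in the F1 comparison.

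The father's dose 2 was also compared on a mother of dose 2, in ovaries of other libraries, by setting both parents dose 2 against mother dose 2. There edgeR called 0 genes (0%), with 4386 at unadjusted p under 0.05, and DESeq2 called 1934. Without library B of both parents dose 2, edgeR called 1921. The genes that had unadjusted p under 0.05 with control mothers had the same sign in 88.2% of cases (2438 of 2765), against 69.1% of all genes. Pearson's r of the log2 differences was 0.26 across genes, which are not independent replicates and share library traits such as length. Metrnl differed by 0.30 (adjusted p = 0.144), Arntl by -0.45 and Dbp by 1.318. Ribosomal genes had a median of 0.51, and 45 of 45 lay above 0. A test of the difference between the 2 father effects gave 0 calls by edgeR, with 834 genes at unadjusted p under 0.05 and 4 calls by DESeq2.

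Ovaries of the F1 generation, where the females drank dose 2 themselves, lay the other way. The F1 comparison gave 0 calls by edgeR (0%), with 2053 at unadjusted p under 0.05, and 349 by DESeq2. Without F1 dose 2 C, edgeR called 368. Of the genes with unadjusted p under 0.05 in the F2 father comparison, 14.5% had the same sign in F1 (398 of 2740), against 31.9% of all genes. Ribosomal genes had a median of -0.62 and 45 of 45 below 0, oocyte genes had a median of -0.61 with 29 of 30 below 0, and the shortest quintile of transcripts had a median of -0.13 against 0.20 in the longest. Oviduct genes had a median of 2.59 there, so these libraries also differed in oviduct markers, whose part was not tested. Metrnl had 85.7, 41.1 and 57.1 CPM in F1 controls and 43.1, 39.5 and 30.9 CPM in F1 dose 2, which overlap.

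The difference of the F2 father effect and the F1 effect was fitted over all 27 ovary libraries, a comparison chosen after seeing the data. It called 507 of 17754 genes (2.86%), 311 higher and 196 lower in the F2 father effect. Of the 20 named genes, 15 were among them, Metrnl with 1.68 ± 0.26 (adjusted p = 0.0126). The count was 369 with the length trend removed, and single libraries decided it. It was 2 to 13 without father dose 2 B or C, F2 control B or C, F1 control A, or F1 dose 2 A or B, 92 without F2 control A, 973 without father dose 2 A, and 2582 and 2996 without F1 control C and B. Oviduct markers differed in the F1 comparison, as described above, and their part in these counts was not tested.

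In testes of F2 males of the same cross, from other libraries, 1026 of 19241 genes were called (5.33%), 566 higher and 460 lower, and the count was 75 to 105 without control A, control C, father dose 2 A or father dose 2 B, and 3122 without control B. Of ovary genes with unadjusted p under 0.05, 37.6% had the same sign in testis, against 44.9% of all genes. Metrnl lay at 1.59 to 2.12 CPM in control testes and 2.07 to 2.50 CPM in father dose 2 testes, and differed by 0.27 (adjusted p = 0.42). Arntl differed by 0.07 in testis. The age of these males is given as 10 weeks, against 8 weeks for the F2 females.

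Set beside fathers of dose 1 (EE2 2.25, IBU 11.3, DCF 22.5 and 2hIBU 90 ng/L), which share the father dose 2 libraries, 14 genes were called (0.0802%), 11 higher. The count was 482 without father dose 1 C, 144 without father dose 2 A and 0 without any 1 of the other 4 libraries. Metrnl was among them (0.70, adjusted p = 0.0496). So were Npm2 (0.74), Gdf9 (0.83), Khdc3 (0.73), Oas1d (0.70) and Rfpl4 (0.71) of the oocyte list, at adjusted p = 0.0482. Luteal genes moved with this comparison: their median was -1.34 and that of cholesterol genes -0.96, and father dose 1 A and B had the highest mean luteal log2 CPM of the 18 libraries (8.76 and 8.57, with 7.90 in C). Their part in the oocyte values was not tested. With control parents the same oocyte genes differed by 0.54, 0.49, 0.39, 0.29 and 0.42, in that order. Against mothers of dose 2, 1 gene was called (0.00573%), the presynaptic scaffold gene Bsn at -1.41 (adjusted p = 0.0275), whose difference from control parents was -0.74. That count was 424 without father dose 2 A, 9 without mother dose 2 B, and 0 without mother dose 2 C, father dose 2 B or father dose 2 C. These comparisons share the father dose 2 libraries with the first, so their values stand side by side and are not a separate test.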

How the data were processed

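RNA of ovary and testis was extracted with TRIZOL and made into stranded mRNA libraries read at 100 nt, per the labels' protocols. For each tissue the authors deposited 1 table of raw read counts by gene. Per the submitters' processing notes the named tools include TopHat2 2.1.1, Bowtie2 2.4.5 and featureCounts 2.0.3, and the build is mm39. Neither the annotation nor the strand setting of the counting is given in the labels or file headers, so overlapping and antisense genes are uncertain. Of the 26264 ovary rows, 133 carry no gene ID.

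Columns were matched to samples by title. The 18 ovary F2 libraries (6 crosses of 3) were fitted together in edgeR 4.0.16 (R 4.3.3) with group means, TMM factors, filterByExpr at a minimum count of 10, robust quasi-likelihood tests and Benjamini-Hochberg adjustment at 0.05. The F1 ovaries and F2 testes were fitted in the same way. SE is the absolute log2 fold change over the square root of F, and CPM uses TMM-normalised library sizes. Of the 20 genes the rule named, 2 are not reported here. Replicates of 1 group differed beyond sampling noise (chi-square per gene 21.1 to 104). Genes named were the 15 largest called in each direction or, with fewer than 5 called, the 10 smallest p among genes of 1 CPM or more on average with a non-predicted symbol. For each list up to 4 genes of smallest p were named, and for some lists also genes among its first 2, such as Amh and Akr1c18. Others, such as Per1 and Cry1, were chosen after their values were seen. Transcript lengths and GC contents are medians from GENCODE M21, matched for 91.2% of genes tested, and were not in the files' build. Promoter sequences are from RefSeq on GRCm38.p6. The comparison, the 36 lists and the genes were chosen with earlier results of these data known. Alternatives were DESeq2 1.42.0, RLE factors, no filter, the replicate letter as a block, other sets of libraries, each library left out and, added after seeing the data, a length trend removed.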

Additional observations from a re-analysis of the deposited data

Results flagged for a closer look

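The effect of the father's dose 2 on F2 ovaries and the effect of dose 2 on F1 ovaries differed for 15 of the 20 named genes, by a test of the difference itself over all 27 ovary libraries (edgeR, adjusted p 0.00855 to 0.0435). The 20 genes were chosen by their F2 effect, which is part of this difference, so the test is not independent of the choice. The F2 effect minus the F1 effect was 1.68 for Metrnl, 0.98 for Tbc1d10a, 0.83 for Fam117a, 0.51 for Cnppd1, 1.36 for Rarres2, 0.73 for Slc26a11, 1.40 for Herpud1 and 0.66 for Gatd1, on the log2 scale. It was -0.93 for Pfkfb2, -1.26 for Arntl, -0.69 for Recql, -0.85 for Sh3bp5, -0.78 for Zfp827, -1.15 for Cbfa2t3 and -1.08 for Msi2. In the F1 comparison by itself edgeR called none of the 20 named genes (adjusted p 0.407 to 0.949). Herpud1 had 102, 92.8 and 96.5 CPM in F1 controls and 64.8, 55.1 and 55.4 CPM in F1 dose 2, which do not overlap. Rarres2 had 207, 109 and 103 CPM in F1 controls, with control A high, and 85.5, 76.4 and 96.4 CPM in F1 dose 2. In the F1 comparison 17 of 17 oviduct genes lay above 0 (median 2.59), and the part of that shift was not tested. Over all genes the 507 calls of this difference became 84 with the replicate block, 0 with only the libraries compared and 2 without father dose 2 C. F1 females drank the mixture themselves, and F2 females did not. The transcript length trend ran in opposite directions in the 2 comparisons and its part in these genes was not tested singly.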

How the results depend on the processing

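Depth was 39.1 to 55.3 M counts a library. For father dose 2 against control parents, 1 gene called, the count was 0 with all 27 ovary libraries in the fit. The call of Metrnl was also lost on the 6 libraries alone (edgeR adjusted p = 0.182). The count was 343 by DESeq2 (206 higher, 137 lower). Over the left-out libraries it ranged from 0 to 108, with 108 without father dose 2 A. All 20 named genes kept their direction in 260 of 260 alternative values. They were chosen by small p in these same libraries, with groups that did not overlap, so kept direction follows largely from that choice. On mothers of dose 2, 0 became 1934 by DESeq2 and 0 to 1921 over left-out libraries (1921 without both-parents B). Its difference by mother was 4 by DESeq2. Against father dose 1, 14 became 9 with the replicate block, 0 with only the libraries compared, 1 with all 27, 1207 by DESeq2 and 0 to 482 over left-out libraries. Against mother dose 2, 1 became 0 with the replicate block, on the 6 libraries alone, in the fit of 27 and after removal of the length trend, 868 by DESeq2 and 0 to 424 over left-out libraries. In F1 ovary, 0 became 2 with the replicate block, 350 with all 27, 349 by DESeq2 and 0 to 368 over left-out libraries. In testis, 1026 became 458 with only the libraries compared, 1882 by DESeq2 and 75 to 3122 over left-out libraries. The F2 minus F1 difference, 507, became 300 without the filter, 84 with the replicate block, 0 with only the libraries compared, 2093 by DESeq2 and 2 to 2996 over left-out libraries. Over left-out libraries the clock list median ran from -0.208 to 0.0457 and the periovulatory one from -1.13 to 0.0885, above 0 in both without control C.

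The replicate letters are not taken as pairs: same-letter deviations of the 2 groups correlated at 0.22, 0.07 and 0.18, not all above 0.1, though each library correlated best with its own letter. With the replicate block 1 gene was called, as without it.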
